A study of Mus musculus with 6 samples.

Results

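Hepatocyte identity is held by a small group of liver-enriched transcription factors that bind each other's genes and switch on the secretory and metabolic genes of the mature cell. The group described here has 9 members: the nuclear receptor genes Hnf4a, Nr5a2 and Nr1h4, the forkhead genes Foxa1, Foxa2 and Foxa3, the basic leucine zipper gene Cebpa, and the homeodomain genes Prox1 and Onecut1. They were chosen by symbol, but with earlier results of these data known. Among the 47729 genes of the count files 9 of 9 were found, and again in the table of FPKM values. All 9 also passed the filter on low counts and were tested among 13767 genes.

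The samples were livers of C57BL/6 mice, 3 controls and 3 with knockdown of Atoh8, a basic helix-loop-helix transcription factor gene. Both groups were fed 0.1% DDC, which blocks heme synthesis and causes cholestatic injury, over 17 days, so the controls carried the injury too and no liver without DDC was compared. The series design names the groups shNC and shAtoh8, whereas the sample titles give the controls as WT and the genotype label gives the others as ATOH8 knockdown. The labels do not state how the knockdown was delivered, in which cells it acted or whether replicates were separate animals, so the p-values reflect no more than how these samples vary, possibly for technical reasons.

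The libraries are called controls 1 to 3 and knockdowns 1 to 3, by the replicate numbers of the titles. Each library held 31912058 to 37969644 reads in genes. Control 1 stood apart from the other libraries: mitochondrially encoded genes took 2.43% of its reads against 3.48% to 6.94% elsewhere, and the fitted results are given with and without it. Expression is given in CPM, a gene's reads scaled to a common library total after TMM adjustment. Atoh8 itself measured 63.8, 16.8 and 16.4 CPM in controls 1 to 3, against 10.2, 9.83 and 5.64 CPM in knockdowns 1 to 3, so that its groups did not overlap. Its log2 difference was -1.92 (SE 0.58, edgeR adjusted p = 0.197), and -0.95 (SE 0.23, edgeR adjusted p = 0.0115) without control 1.

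Although the samples are labelled hepatocyte, and the design text speaks of resting hepatocytes, the protocol took RNA from removed livers, and markers of several liver cells were present. The 13 hepatocyte markers found summed to 136240 to 201816 CPM in the controls and 133359 to 155774 CPM under knockdown, with 0 of 13 called. Without control 1, 1 was called higher (Fga) and 2 lower (Ttr and Cps1), against 16.5% higher and 16.1% lower among all tested genes. Macrophage and Kupffer cell markers (11 genes) summed to 595, 360 and 327 CPM in controls 1 to 3 and to 530 to 601 CPM under knockdown, and 0 of 11 were called with all libraries, or 8 higher without control 1, where 16.5% of all tested genes were called higher. Stellate cell and fibroblast markers (10 genes) summed to 210 to 257 CPM in the controls and 340 to 487 CPM under knockdown. With all libraries 1 of 10 was called higher (Acta2), or 6 without control 1, among them the collagen genes Col1a1, Col3a1 and Col1a2. The list did not move as a whole. Without control 1, Rgs5, Lrat and Dcn had negative log2 fold changes (-0.80, -0.17 and -0.17) and Des a positive one (0.49), none of them called. Endothelial markers (11 genes) summed to 192 to 260 CPM and 207 to 260 CPM, with 0 called, or 2 higher without control 1 (Stab1 and Cdh5). Cholangiocyte markers (10 genes, 5 tested) summed to 101 to 120 CPM in the controls and 384 to 611 CPM under knockdown. Spp1, the osteopontin gene, was 30.7 to 40.8 CPM of the control sums, where Slc4a2 was larger at 47.6 to 64.4 CPM, and 322 to 539 CPM of the knockdown sums. It was the 1 cholangiocyte marker called higher (log2 difference 3.67, SE 0.28, edgeR adjusted p = 0.00985), while the duct keratins Krt7 and Krt19 stayed at or under 0.50 CPM. Lymphocyte markers summed to at most 0.81 CPM and neutrophil markers to at most 2.57 CPM in any library. Of 8 markers of the exocrine pancreas, where Foxa2, Nr5a2, Onecut1 and Prox1 also act, 7 had at most 3 reads in every library. In such bulk RNA fewer hepatocytes and less RNA per hepatocyte cannot be told apart, and the part of other cell types in the results below was not tested.

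HNF4A is the nuclear receptor that drives a large share of hepatocyte genes, and FOXA proteins are pioneer factors that open chromatin at liver enhancers before other factors bind. C/EBP alpha promotes metabolic genes and restrains proliferation, Nr1h4 encodes the bile acid receptor FXR, and Nr5a2 encodes LRH-1, which acts with FXR in bile acid and cholesterol control. PROX1 is a homeodomain factor that can hold back HNF4A and LRH-1, and ONECUT1, also called HNF6, acts in both hepatocyte and bile duct development.

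Proximal promoters of 4 members are shown because they belong to the member with the largest difference (Onecut1), to the only member whose groups did not overlap and its most abundant paralog (Foxa2 and Foxa3), and to a nuclear receptor gene that was low in control 1 (Nr5a2). Each is the 250 bases before a start site in RefSeq's GRCm38.p6 table, written 5′ to 3′ on the gene's own strand, with capitals for every match to a searched motif.
Onecut1 (chr9:74861671-74861920, plus strand): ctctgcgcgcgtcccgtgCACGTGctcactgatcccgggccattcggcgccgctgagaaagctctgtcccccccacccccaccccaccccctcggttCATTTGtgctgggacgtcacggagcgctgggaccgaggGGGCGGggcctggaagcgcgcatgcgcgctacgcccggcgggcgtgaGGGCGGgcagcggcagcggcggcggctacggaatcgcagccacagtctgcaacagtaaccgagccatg
Foxa2 (chr2:148046970-148047219, minus strand): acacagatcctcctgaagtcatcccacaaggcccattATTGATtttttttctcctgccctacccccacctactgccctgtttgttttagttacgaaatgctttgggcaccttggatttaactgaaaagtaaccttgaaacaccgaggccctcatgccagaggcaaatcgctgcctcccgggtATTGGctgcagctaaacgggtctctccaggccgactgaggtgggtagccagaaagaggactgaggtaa
Foxa3 (chr7:19023540-19023789, minus strand): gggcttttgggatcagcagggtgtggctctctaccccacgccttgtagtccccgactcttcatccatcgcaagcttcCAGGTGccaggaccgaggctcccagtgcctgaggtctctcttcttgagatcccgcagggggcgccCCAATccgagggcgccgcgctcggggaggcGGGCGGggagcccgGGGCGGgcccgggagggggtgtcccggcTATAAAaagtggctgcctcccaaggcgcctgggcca
Nr5a2 (chr1:136960449-136960698, minus strand): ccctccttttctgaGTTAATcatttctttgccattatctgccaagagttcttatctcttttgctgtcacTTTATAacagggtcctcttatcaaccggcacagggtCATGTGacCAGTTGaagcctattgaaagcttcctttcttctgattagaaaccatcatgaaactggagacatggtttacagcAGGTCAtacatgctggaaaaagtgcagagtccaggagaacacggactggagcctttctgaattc

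The letters searched on both strands were the E-box CANNTG, the GC box GGGCGG, the CCAAT box CCAAT, the TATA box TATAAA, the HNF1 core GTTAAT, the forkhead motif TGTTTAC, the nuclear receptor motif AGGTCA, the LRH-1 motif TCAAGGTCA, the HNF4 motif CAAAGTCCA, the ONECUT motifs ATCGAT and ATTGAT, and the C/EBP motif TTGCNNAA. AGGTCA is contained in the LRH-1 motif. The Onecut1 window held E-boxes 232 and 153 bases before the start and GC boxes at 115 and 68 bases. The Foxa2 window held ATTGAT at 213 bases and a CCAAT box, read on the other strand, at 68 bases. The Foxa3 window held an E-box at 173 bases, a CCAAT box at 108, GC boxes at 78 and 64 and a TATA box at 36 bases. The Nr5a2 window held the HNF1 core at 236 bases, a TATA box on the other strand at 181, E-boxes at 145 and 137 and AGGTCA at 64 bases. Of 14 RefSeq start windows of the 9 genes, 4 held the HNF1 core (Foxa2, Hnf4a, Nr1h4 and Nr5a2), against 6.43% of the 32851 windows in the whole table. The Foxa2 match lay in another window of that gene (chr2:148045465-148045714), which is not shown above. An E-box was present in 10 of the 14, against 66.2% of all windows, and a GC box in 8 of the 14, against 32.7%. CCAAT boxes occurred in 33.9% of all windows, TATA boxes in 12.4%, AGGTCA in 14.02%, ATTGAT in 6.72%, TTGCNNAA in 9.56% and TGTTTAC in 3.17%. The LRH-1 and HNF4 motifs and ATCGAT were in 0 of the 14, against 0.387%, 0.384% and 0.728% of all windows. These are matches of letters, and binding was not analysed here.

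Every member had a negative log2 fold change in the knockdown livers, and none passed the test with all 6 libraries. Negative values were also found for 54.7% of all 13767 genes tested, where the median was -0.05, against a median of -0.41 for the 9 members. By the edgeR quasi-likelihood test with Benjamini-Hochberg adjustment over all genes, 0 of 9 members were called lower at an adjusted p under 0.05, against a background of 0.123%, and 0 of 9 higher, against 0.741%. At an unadjusted p under 0.05 Foxa2 was the 1 of 9 to pass edgeR, against 14.5% of all genes, and DESeq2 also called 0 of 9, against 1.40% lower and 3.73% higher. With control 1 left out, 6 of 9 were called lower (Nr5a2, Nr1h4, Foxa1, Foxa2, Prox1 and Onecut1), 0 higher, against backgrounds of 16.1% lower and 16.5% higher. All 9 were negative in that fit as well, against 49.2% of all genes, and their median was -0.57. The 3 that were not called in that fit were Hnf4a, Foxa3 and Cebpa.

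**Figure D1:**
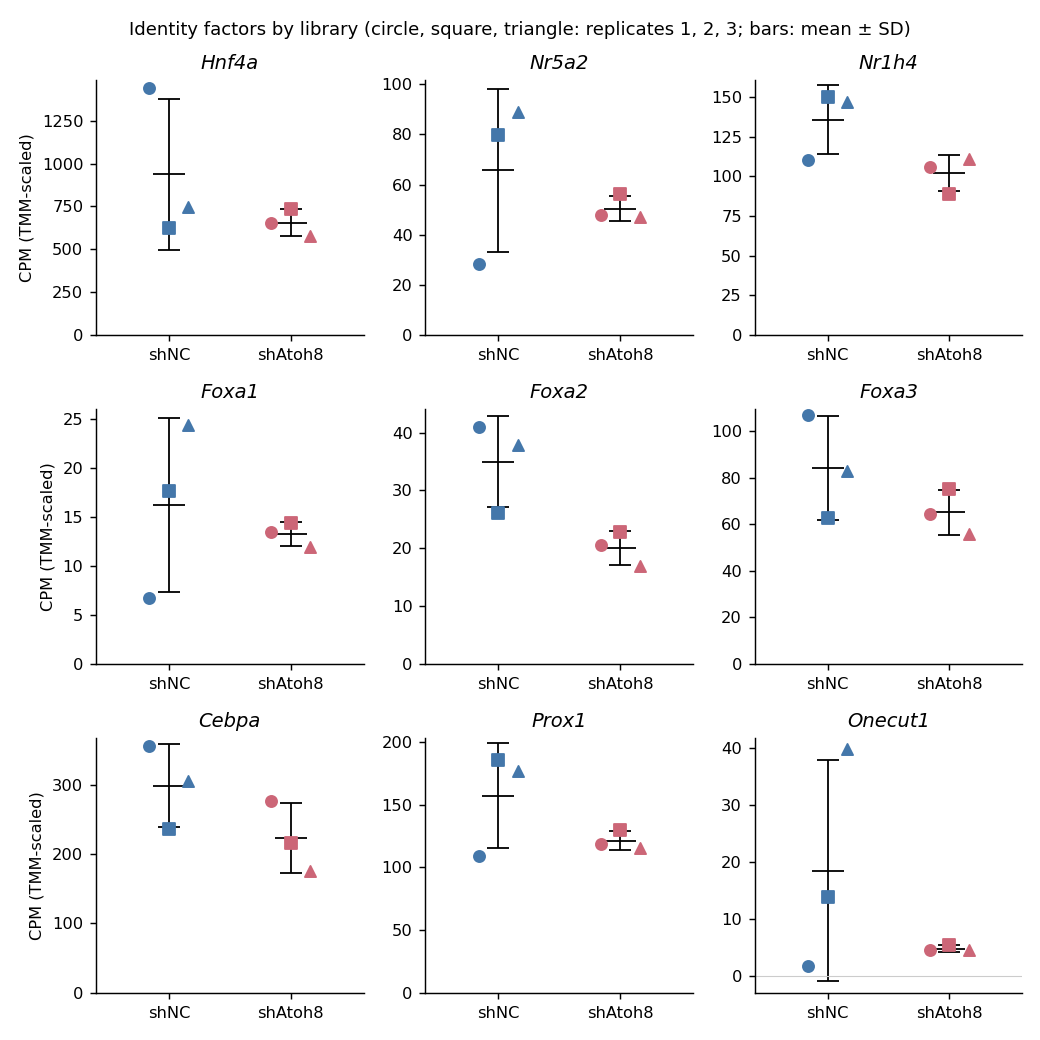
Level of each identity factor in CPM on TMM-scaled library sizes, with 1 panel per gene, control (shNC) and knockdown (shAtoh8) libraries as points shaped by replicate number, and bars for the mean ± SD (n = 3). The SD is smaller under knockdown for every gene, though only slightly for Cebpa (50.3 against 60.0 CPM). Control 1 (circle) is the highest control for Hnf4a, Foxa2, Foxa3 and Cebpa and the lowest for the other 5 genes.

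Levels can be compared between genes per transcript length, in the FPKM values of the authors. Under knockdown Hnf4a was the most abundant member at 150 ± 16.9 FPKM (SD, n = 3), followed by Cebpa at 94.0 ± 13.5, Nr1h4 at 52.6 ± 6.02 and Foxa3 at 36.2 ± 4.84 FPKM. Prox1 (16.7 ± 1.62), Nr5a2 (11.8 ± 1.68) and Foxa2 (9.34 ± 1.13 FPKM) came next, and Foxa1 (4.02 ± 0.129) and Onecut1 (3.41 ± 0.421 FPKM) were the least abundant. Neighbours in that order did not overlap in their ranges over libraries, except Nr5a2 and Foxa2. The first 7 genes had the same order by mean in the controls, from Hnf4a at 211 ± 99.0 to Foxa2 at 15.0 ± 2.84 FPKM, with Onecut1 (12.4 ± 11.9) above Foxa1 (4.84 ± 2.68 FPKM). In the controls the ranges of Nr1h4 and Foxa3 overlapped, and so did those of each pair of neighbours from Prox1 to Foxa1.

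Hnf4a (ENSMUSG00000017950, GRCm38 chromosome 2, 163506808 to 163572910, plus strand), the nuclear receptor gene, measured 1441, 623 and 747 CPM in controls 1 to 3, against 654, 736 and 576 CPM in knockdowns 1 to 3. The knockdown values lay within or just below those of controls 2 and 3, and control 1 alone was high. On the log2 scale the difference was -0.52 (SE 0.33, edgeR adjusted p = 0.544), and it was -0.05 (SE 0.16, edgeR adjusted p = 0.843) without control 1. The antisense gene Hnf4aos, which overlaps it, had 21 to 37 reads in every library. Hnf4a had 21729 to 43526 reads. Strand use in the counting is not stated, and an effect of the overlap on the Hnf4a count was not tested.

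Nr5a2 (ENSMUSG00000026398, chromosome 1, 136842571 to 136960448, minus strand) measured 28.3, 80.0 and 88.8 CPM in controls 1 to 3, against 48.0, 56.1 and 47.0 CPM in knockdowns 1 to 3. Control 1 was the lowest of all libraries and controls 2 and 3 the highest, so the knockdown libraries lay between. The log2 fold change of -0.38 (SE 0.40, edgeR adjusted p = 0.714) became -0.73 (SE 0.13, edgeR adjusted p = 0.00261) without control 1.

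Nr1h4 (ENSMUSG00000047638, chromosome 10, 89454234 to 89533585, minus strand), the FXR gene, measured 111, 150 and 147 CPM in controls 1 to 3, against 106, 89.0 and 111 CPM in knockdowns 1 to 3. The groups overlapped only through control 1 and knockdown 3. Between the groups this gave a log2 fold change of -0.41 (SE 0.20, edgeR adjusted p = 0.402), and -0.52 (SE 0.14, edgeR adjusted p = 0.0189) without control 1.

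Among the forkhead genes, Foxa2 (ENSMUSG00000037025, chromosome 2, 148042877 to 148046969, minus strand) was the only one of the 9 members whose groups did not overlap. It measured 40.9, 26.0 and 37.9 CPM in controls 1 to 3, against 20.6, 22.8 and 16.9 CPM in knockdowns 1 to 3. Every knockdown library was below every control library, a separation in this direction that 10% of all tested genes also showed. In the fit this was a log2 fold change of -0.80 (SE 0.24, edgeR adjusted p = 0.197), and -0.66 (SE 0.18, edgeR adjusted p = 0.0207) without control 1.

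Foxa1 (ENSMUSG00000035451, chromosome 12, 57540628 to 57546916, minus strand) measured 6.76, 17.7 and 24.3 CPM in controls 1 to 3, against 13.5, 14.4 and 11.9 CPM in knockdowns 1 to 3. As for Nr5a2, control 1 was the lowest library and the knockdown libraries lay between it and the other controls. The log2 fold change of -0.29 (SE 0.43, edgeR adjusted p = 0.798) became -0.65 (SE 0.17, edgeR adjusted p = 0.0160) without control 1 and turned to 0.11 (SE 0.42, edgeR adjusted p = 0.962) without control 3.

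Foxa3 (ENSMUSG00000040891, chromosome 7, 19013284 to 19023538, minus strand) measured 107, 62.8 and 83.0 CPM in controls 1 to 3, against 64.7, 75.1 and 55.9 CPM in knockdowns 1 to 3. Control 2 lay among the knockdown libraries. The fitted log2 difference was -0.37 (SE 0.24, edgeR adjusted p = 0.550), and -0.15 (SE 0.16, edgeR adjusted p = 0.527) without control 1. Sympk, which starts 839 bases from it on the other strand, measured 131, 62.2 and 61.3 CPM in controls 1 to 3 and 84.6, 94.2 and 70.7 CPM under knockdown.

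The balance among the 3 FOXA paralogs was examined per library as each gene's share of their summed FPKM. Foxa2 made up 22.5%, 22.6% and 22.6% of the sum in controls 1 to 3 and 18.7%, 18.9% and 19% in knockdowns 1 to 3. In FPKM the share was thus nearly constant within each group, control 1 included. It was lower by 3.68 percentage points in the knockdown livers (18.8% ± 0.177 against 22.5% ± 0.0630, SD, n = 3). A two-sided exact permutation test gave p = 0.10, the smallest that 3 against 3 libraries allow, before adjustment for the 3 paralogs examined. Foxa3 held 75.1%, 67.0% and 67.0% among controls, against 73.2%, 73.7% and 72.0% under knockdown (exact permutation p = 0.40). Foxa1 held 2.42%, 10.4% and 10.4% among controls, against 8.13%, 7.45% and 8.96% under knockdown (exact permutation p = 1.0). For Foxa1 the difference between the group means was 0.44 percentage points with all libraries and -2.22 without control 1, so its direction rested on that library. Without control 1 the difference was -3.72 for Foxa2 and 5.94 for Foxa3. The 3 tests adjusted together by the Benjamini-Hochberg method gave 0.30 for Foxa2. With CPM in place of FPKM, the Foxa2 share was also lower under knockdown but varied more within each group.

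**Figure D2:**
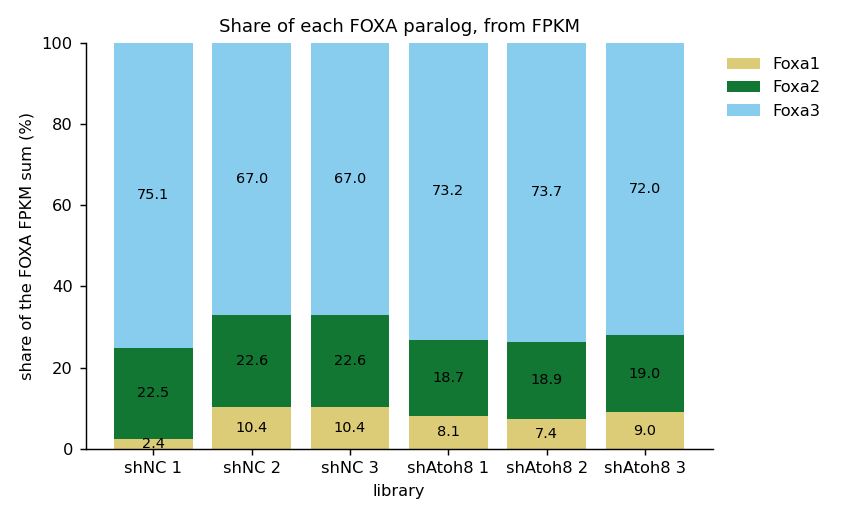
Share of Foxa1, Foxa2 and Foxa3 in their summed FPKM (percent, vertical axis) in each of the 6 libraries (horizontal axis). The Foxa2 segment is 22.5% to 22.6% in the 3 controls and 18.7% to 19% in the 3 knockdown libraries, while the Foxa1 segment of control 1 is 2.42% against 7.45% to 10.4% elsewhere.

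Cebpa (ENSMUSG00000034957, chromosome 7, 35119293 to 35121928, plus strand) measured 355, 235 and 305 CPM in controls 1 to 3, against 276, 216 and 176 CPM in knockdowns 1 to 3. The groups overlapped, with control 2 below knockdown 1. On the log2 scale the difference was -0.42 (SE 0.25, edgeR adjusted p = 0.492), and -0.27 (SE 0.20, edgeR adjusted p = 0.330) without control 1. The overlapping antisense gene ENSMUSG00000108624 had 3 to 21 reads per library, against 7546 to 11378 for Cebpa.

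Prox1 (ENSMUSG00000010175, chromosome 1, 190118035 to 190170714, minus strand) measured 109, 185 and 177 CPM in controls 1 to 3, against 119, 130 and 115 CPM in knockdowns 1 to 3. Control 1 lay just below the knockdown libraries and controls 2 and 3 clearly above them. The log2 fold change of -0.37 (SE 0.24, edgeR adjusted p = 0.535) became -0.57 (SE 0.13, edgeR adjusted p = 0.00854) without control 1. The overlapping antisense gene Prox1os, which starts 418 bases from it, had 225, 65 and 29 reads in controls 1 to 3, against 77, 114 and 68 reads in knockdowns 1 to 3, where Prox1 had 3289 to 6463 reads over the libraries. Prox1os was thus high in control 1, where Prox1 was low, and its log2 fold change was -0.67 (SE 0.72, edgeR adjusted p = 0.724) with all libraries and 0.61 (SE 0.41, edgeR adjusted p = 0.286) without control 1. A further antisense gene, Gm28172, had 4 to 16 reads and was not tested. Prox1 also marks lymphatic endothelium, whose marker Pdpn stood at or under 0.05 CPM in every library.

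Onecut1 (ENSMUSG00000043013, chromosome 9, 74861921 to 74891781, plus strand) had the largest difference of the 9 members and also the widest spread among controls. It had 55, 481 and 1225 reads in controls 1 to 3, against 184, 210 and 192 reads in knockdowns 1 to 3. These correspond to 1.82, 13.8 and 39.8 CPM in the controls and to 4.46, 5.49 and 4.47 CPM in the knockdown libraries. The controls spanned both sides of the knockdown livers, which differed little from each other. Between the groups this gave a log2 fold change of -1.94 (SE 0.88, edgeR adjusted p = 0.373), -2.46 (SE 0.35, edgeR adjusted p = 0.000873) without control 1 and -0.70 (SE 0.72, edgeR adjusted p = 0.802) without control 3. Its paralog Onecut2, read from the list of other liver factors, measured 19.3, 165 and 183 CPM in controls 1 to 3, against 53.8, 63.5 and 62.0 CPM in knockdowns 1 to 3. In both paralogs the knockdown libraries therefore lay between control 1 and the other controls, and Onecut2 had a log2 difference of -1.03 (SE 0.68, edgeR adjusted p = 0.553), or -1.53 (SE 0.13, edgeR adjusted p = 0.000160) without control 1.

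**Figure D3:**
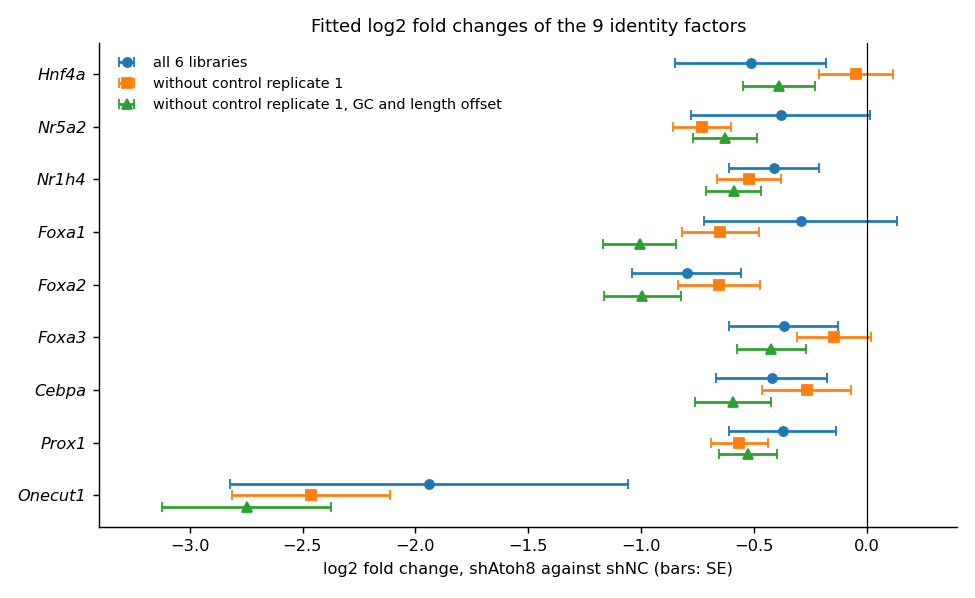
Fitted log2 fold change, knockdown against control (horizontal axis), of each identity factor (vertical axis) with its SE, for all 6 libraries, without control 1, and without it but with an offset for GC content and transcript length. All 27 estimates are negative, the SE is smaller without control 1 for all 9 genes, and Onecut1 lies farthest from 0 in each fit.

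Over all genes the departure of control 1 from the other controls followed the base composition of the transcripts, and the members did so in part. Nr5a2 (GC content of its longest transcript 43.2%), Prox1 (45.3%), Nr1h4 (47.2%) and Onecut1 (49.7%) were lower in control 1 than in controls 2 and 3, by log2 differences, on CPM plus 0.1, of -1.57, -0.73, -0.42 and -3.61. Hnf4a (53.7%), Foxa3 (54.4%), Foxa2 (57.0%) and Cebpa (62.6%) were higher there, by 1.08, 0.57, 0.38 and 0.41. Foxa1 (54.2%) was lower there too, at -1.60. Over all tested genes, the median log2 difference of control 1 from the other controls was -1.35 for transcripts under 45% GC, -0.09 between 45% and 50%, 0.45 between 50% and 55% and 0.66 above. Prox1, Nr1h4 and Onecut1 belong to the class of -0.09 and were all below it, Onecut1 by far the most, and Foxa1 had the opposite sign to its class. The knockdown libraries differed from controls 2 and 3 in the same direction, with medians of -0.40 and 0.22 in the lowest and highest class.

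An offset for GC content and transcript length, fitted per library without regard to group, was therefore applied in addition to leaving out control 1, a combination chosen after seeing the data. In that fit 7 of 9 members were called lower and 0 higher, against backgrounds of 20.3% lower and 12.3% higher. They were the 6 named above and Cebpa, at -0.59 (SE 0.17, edgeR adjusted p = 0.0244). Hnf4a stood at -0.39 (SE 0.16, edgeR adjusted p = 0.0887) and Foxa3 at -0.42 (SE 0.15, edgeR adjusted p = 0.0578). With the offset and all 6 libraries 0 of 9 were called, and Foxa2 came nearest (-0.89, SE 0.20, edgeR adjusted p = 0.0517). The offset moved the median of all genes to -0.16 with all libraries and to -0.11 without control 1, so the members' values in these fits are to be read against those medians.

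**Figure D4:**
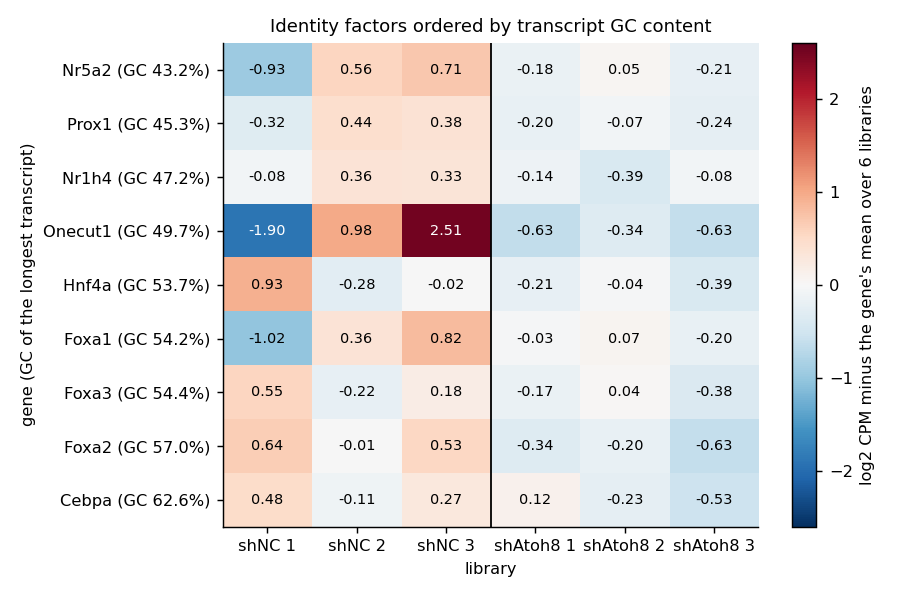
Log2 CPM of each identity factor minus its mean over the 6 libraries (colour and number), with genes as rows ordered by the GC content of the longest transcript and libraries as columns. Control 1 is below the gene's mean for the 4 genes of lowest GC content and for Foxa1 and above it for the other 4, and Onecut1 spans -1.90 to 2.51.

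The members fell into a few shapes across the 6 libraries, described by the root mean square difference between mean-centred log2 CPM profiles. The closest pair was Nr5a2 and Foxa1 (0.12), followed by Hnf4a and Foxa3 (0.18), Nr1h4 and Prox1 (0.18) and Foxa3 and Cebpa (0.19), whereas Hnf4a and Onecut1 were the farthest apart (1.65). Among 7537 other genes averaging 10 CPM or more, those nearest to Hnf4a were the ribosomal protein genes Rpl27a (0.06) and Rpl28 (0.07). The genes nearest to Nr5a2 were Csnk1g3 (0.04) and Il1rap (0.06), to Nr1h4 Fam120b (0.05) and Utp18 (0.06), and Ankrd10 was among those nearest to Prox1 (0.07). Nearest to Foxa1 were Tcaim and Kif21a (both 0.10), to Foxa2 Pyurf (0.10) and C1qbp (0.11), to Foxa3 Ndufs8 and Dtd1 (both 0.06), and to Cebpa Hnrnpab (0.09) and Ghdc (0.11). No gene came close to Onecut1, whose nearest were Top1 and Chordc1 (both 0.39). These profiles rest on 6 libraries and include control 1, which stands apart.

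Other liver-enriched factors were read beside the members from a list of 22 genes, of which 21 were tested. Nr1i3, which encodes the xenobiotic sensor CAR, was the 1 gene called lower, 0 were higher, and 17 of 21 had negative values with a median log2 fold change of -0.38. Nr1i3 measured 58.2, 73.6 and 55 CPM in controls 1 to 3, against 19.2, 24.7 and 16.7 CPM in knockdowns 1 to 3 (log2 fold change -1.62, SE 0.23, edgeR adjusted p = 0.0348). It was no longer called without control 2 or 3 (edgeR adjusted p = 0.146 and 0.0772) or without knockdown 1, 2 or 3 (0.238, 0.0932 and 0.235), and with the replicate number as a block (0.0589). Without control 1, 9 of the 21 were called lower, among them Ppara, Nr1i2 and Nr3c1, and 2 higher, among them Atf5, with a median of -0.17. Of 14 cofactors of the nuclear receptors 0 were called in either direction with all libraries, with a median of 0.13, and without control 1 Rxrb was higher and Ncor1, Med1 and Ep300 lower. The smallest p-values among the cofactors were those of the histone demethylase gene Kdm1a (log2 fold change 0.39, edgeR adjusted p = 0.433) and the Mediator gene Med1 (-0.28, edgeR adjusted p = 0.692).

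Textbook target genes of the factors were described by list in the same fit, and 0 were called with all libraries. For the 17 HNF4A targets tested the median was -0.30 on the log2 scale, 15 being negative, with a median of -0.05 without control 1, where 4 were called lower, among them Apob, Ttr and F9, and 0 higher. Ttr, which encodes the thyroxine carrier transthyretin, had the smallest p of this list, with 4801 ± 686 CPM for controls and 3156 ± 292 CPM for knockdown (SD, n = 3, edgeR adjusted p = 0.272). The angiotensinogen gene Agt was next, at -0.51 (edgeR adjusted p = 0.419).

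The 11 C/EBP alpha targets had a median of -0.71, and 10 of 11 were negative. Without control 1 the median was -0.50, with 5 called lower (Cps1, Gys2, Arg1, Hamp and Tdo2) and 0 higher. The arginase gene Arg1 and the hepcidin gene Hamp had log2 fold changes of -0.99 each (SE 0.30 and 0.32, edgeR adjusted p = 0.200 and 0.226). The 9 FOXA targets tested divided by direction, with 6 negative and a median of -0.22. Cps1, the first enzyme of the urea cycle, stood at -0.81 (SE 0.28, edgeR adjusted p = 0.247), whereas the fetal albumin-like gene Afp stood at 1.46 (SE 0.30, edgeR adjusted p = 0.0820). Without control 1, Ttr and Cps1 were called lower and Afp and Igfbp1 higher.

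The 15 FXR targets tested had a median of -0.37, or 0.04 without control 1, where Baat and Cyp7a1 were called lower and 0 higher. This list mixes genes that FXR represses, such as Cyp7a1, with others, so its median does not measure FXR activity. Cyp7a1, which FXR represses through the receptor SHP, measured 136, 565 and 624 CPM in controls 1 to 3, against 146, 174 and 213 CPM in knockdowns 1 to 3. Control 1 was the lowest of the 6 libraries. SHP itself (Nr0b2) averaged 14.6 ± 7.91 CPM for controls and 18.4 ± 6.77 CPM for knockdown (SD, n = 3, edgeR adjusted p = 0.799). The fetuin gene Fetub was fitted at -0.88 on the log2 scale (edgeR adjusted p = 0.315).

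The 9 LRH-1 targets had a median of -0.72, or 0.04 without control 1, and the 8 ONECUT1 targets, which include the member Foxa2, had medians of -0.57 and -0.60. Cyp27a1, an enzyme of bile acid synthesis, stood at -0.86 (SE 0.28, edgeR adjusted p = 0.221). Without control 1 the ONECUT1 list had 5 called lower, among them Pfkfb1, Ttr, Cyp7a1 and Foxa2, and 1 higher, and the LRH-1 list had 3 lower, among them Cyp7a1 and Cyp27a1, and Scarb1 higher.

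Factors of the biliary and progenitor states had mostly positive values. Of 16 such genes 12 were tested, 0 were called with all libraries, 1 was negative (Onecut2) and the median log2 fold change was 0.36. Hes1, a Notch target, measured 26.8, 24.8 and 17.1 CPM in controls 1 to 3, against 66.2, 66.7 and 42.3 CPM in knockdowns 1 to 3 (log2 fold change 1.35, SE 0.27, edgeR adjusted p = 0.0801). Sox4, a progenitor factor gene, had 3, 24 and 11 reads in the controls and 95, 52 and 66 reads in the knockdown libraries (2.16, SE 0.64, edgeR adjusted p = 0.190). The groups did not overlap for either gene. Sox9, of the same list, differed little between the groups (log2 fold change 0.06, SE 0.28, edgeR adjusted p = 0.944). Its value was -0.11 (SE 0.20, edgeR adjusted p = 0.704) without control 1. Without control 1, 13 were tested and 4 called higher, among them Sox4, Hes1 and Ehf, and Onecut2 was called lower. Ehf, tested only without control 1, had 1 and 0 reads in controls 2 and 3, against 13, 7 and 22 reads in knockdowns 1 to 3.

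Of 10 fetal liver genes 6 were tested, with 0 called, 2 negative (H19 and Ahsg) and a median of 1.5. The noncoding RNA gene H19 measured 1.72, 2.47 and 2.96 CPM in controls 1 to 3, against 0.82, 0.18 and 1.54 CPM in knockdowns 1 to 3, with no overlap (log2 fold change -1.48, SE 0.67, edgeR adjusted p = 0.371). It was called lower with the GC and length offset without control 1 (edgeR adjusted p = 0.0366). The RNA-binding protein gene Igf2bp3 had 0, 7 and 4 reads in controls 1 to 3, against 26, 26 and 24 reads in knockdowns 1 to 3 (log2 fold change 2.43, SE 0.80, edgeR adjusted p = 0.227). Without control 1, Afp, Gpc3, Igf2bp3 and Cd24a were called higher and 0 lower, with a median of 1.73. These lists can be read against all tested genes, of which 0.123% were lower and 0.741% higher with all libraries, and 16.1% and 16.5% without control 1.

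**Figure D5:**
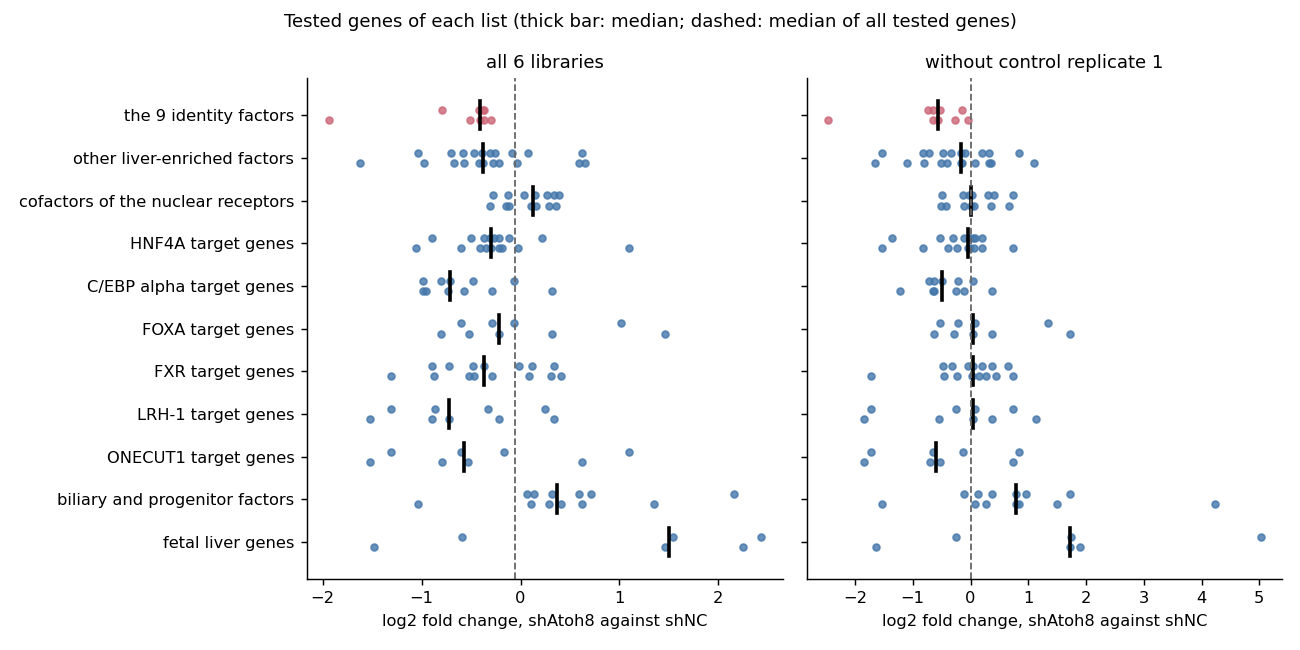
Log2 fold change, knockdown against control (horizontal axis), of each tested gene of the 9 identity factors and of the 10 lists (rows), with all libraries on the left and without control 1 on the right. Thick bars are list medians and the dashed line is the median of all tested genes: the identity factors keep a negative median in both panels (-0.41 and -0.57), while those of the FOXA, FXR and LRH-1 targets are negative only on the left.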

How the data were processed

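Total RNA of 6 mouse liver samples was sequenced, 3 per group. The authors deposited 1 file of raw gene counts per library, and an FPKM table, whose values scale counts by transcript length and library size. FastQC, Trim Galore, HISAT2 (listed as 2.10), HTSeq, Cufflinks 2.2.1 and GRCm38 (mm10) are named per the submitters' processing notes, without roles. Strand treatment in counting was not given in the sources used here. Closing lines that name no gene held 2.48% to 5.66% of reads as outside genes and 4.69% to 6.87% as ambiguous and were left out.

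Groups and replicate numbers came from the titles. After filterByExpr, counts were TMM-scaled (factors 0.852 to 1.13) and tested by the edgeR quasi-likelihood test on group alone (edgeR 4.0.16, R 4.3.3). The Benjamini-Hochberg method adjusted over all genes, with calls at an adjusted p under 0.05. The SE is the log2 fold change divided by the square root of F. Log2 CPM used a prior count of 2. Depth gave every member at least 55 reads per library. The pipeline was tested on simulated data. No replicate pair agreed within sampling noise, with a chi-square per gene of at least 50.2.

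Coordinates, GC content and transcript length came from GENCODE M21 (GRCm38), in which 47310 of 47729 genes were found. Promoters were the 250 bases before RefSeq start sites (GRCm38.p6), and 9 of 9 members matched. Members, lists and tests were chosen with earlier results of these data known. Named genes were the members, Atoh8, per list the smallest p-values (at most 3 genes that passed, otherwise 2), the 2 genes most like each member, opposite-strand genes overlapping or starting within 5 kb, and cell type markers. Onecut2, Nr0b2, Sox9, H19, Ahsg and the other genes listed as called without control 1 were named outside that rule, after their values were seen. So were the markers Spp1, Slc4a2, Pdpn, Rgs5, Lrat, Dcn and Des and the markers listed as called. Some genes that the rule or a list names are counted but not reported here by name. Of the HNF4A list and of the hepatocyte markers, 1 symbol (Tf) was not found in the tables.

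The analysis was repeated with median ratio size factors, without a filter, with a filter of 1 CPM in 3 libraries, with DESeq2 1.42.0, by limma-voom using quality weights (limma 3.58.1), on log2 FPKM with pseudocounts of 1 and 0.1 by limma (at least 0.5 FPKM in 3 libraries), with a replicate block, removal of mitochondrial genes and the 20 most abundant genes, a loess offset (span 0.3) for GC content and transcript length, and each library left out.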

Additional observations from a re-analysis of the deposited data

How the results depend on the processing

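Over 17 alternatives the 9 identity factors kept a negative log2 fold change in 152 of 153 values. The exception was Foxa1 without control 3 (0.11), against -0.65 without control 1. The alternatives refit the same 6 libraries, so these values are not independent. In the same fits 48.8% to 63.1% of all tested genes were negative. No member was called with all libraries under any alternative except limma-voom with quality weights. That fit gave control 1 a weight of 0.0835 and called 6 of 9 lower. Of all 13767 genes tested in it, 2512 were lower and 2576 higher. The GC and length offset without control 1, added after seeing the data, called 7 lower, against 20.3% of all tested genes. Leaving out 1 library gave 0 to 6 members called, with 6 only without control 1, where 16.1% of all tested genes were lower. Genes higher numbered 102 in the report, 213 with no filter, 590 with DESeq2, 2576 with limma-voom, 317 with the GC and length offset, 1749 with that offset without control 1 and 0 to 2348 with 1 library left out. Genes lower numbered 17, then 34, 221, 2512, 301, 2890 and 0 to 2284 in the same order, and 27 with limma on log2(FPKM + 1). Of 102 distinct list genes tested, 1 was called in the report, 3 with no filter, 7 with DESeq2, 41 with limma-voom, 6 with the offset, 43 with the offset without control 1, and 0 to 39 with 1 library left out. The fits with 0 genes called had 1633, 1130 and 1224 genes at an unadjusted p under 0.05 (without control 2, knockdown 1 and knockdown 3). The cause of these shifts was not tested.

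Same-numbered samples of the groups did not deviate together in every pair (correlations 0.25, -0.08 and 0.29), so the numbers were not taken as pairs. A replicate block gave 33 genes higher, 2 lower, 0 list genes and 0 members. The difference in the Foxa1 share between groups turned from 0.44 to -2.22 percentage points without control 1; over single libraries left out it ranged from -2.22 to 1.77, that of Foxa2 from -3.76 to -3.59 and that of Foxa3 from 1.89 to 5.94. Depth did not limit the members, but fetal and biliary genes under about 1 CPM rest on few reads.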
